A study of Mus musculus with 31 samples.

Results

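The 39 genes described here are the genes from which an epithelial sheet is built and by which it is recognised: cadherins and Epcam, tight junction proteins, desmosome and hemidesmosome proteins, simple keratins, epithelial transcription and splicing regulators, and surface serine proteases with their inhibitors. They were taken by name from a list and looked up by gene identifier among the 29267 genes of each table. All 39 were found and all 39 passed the filter on low counts, which left 14914 genes to test.

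RNA was sequenced from 31 mouse libraries of strain 129/OG2, a background that carries a fluorescent reporter of Pou5f1. There were 2 libraries of untreated embryonic fibroblasts (MEF, passage 2), 2 of embryonic stem cells (ESC), and 24 of cells during reprogramming by the OKSM factors (Pou5f1, Klf4, Sox2 and Myc). The 24 came from day 3 and day 8, with a virus labelled Flag or Tet1CD and with DMSO (the solvent), Vc or DKG in the medium, which makes 6 arms of 2 libraries at each day; all 24, the Flag DMSO arm included, carry OKSM. Single libraries of fibroblasts kept to day 3 in DMSO, Vc or another compound were used as values only, since each has no second library; the title of the last reads 2DG while its treatment field reads DKG. The series title names TET1 and vitamin C; the labels spell out neither Tet1CD nor DKG and give no doses. Reprogramming and MEF libraries carry the numbers 0824 and 0826, ESC libraries the numbers 0819 and 0822. The labels do not say what these numbers mean, separate cultures behind the libraries of 1 group are not stated, and the p-values below measure only the spread between libraries, which may be technical.

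Epithelial cells hold together through adherens junctions, in which E-cadherin (Cdh1) binds its like on the next cell, through tight junctions made of claudins, occludin and their cytoplasmic partners, and through desmosomes, which tie keratin filaments of neighbouring cells together. Fibroblasts lack most of these and keep them silent partly through Snail and Zeb repressors, which bind E-box sequences. During reprogramming of fibroblasts by OKSM, a mesenchymal-to-epithelial transition is a well known early phase, and pluripotent stem cells themselves grow as an epithelium rich in Cdh1 and Epcam.

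Library totals ranged from 3953297 to 6818060 counts. In the 12 Flag libraries Tet1 lay between 4.38 and 32.6 CPM (counts scaled to library size, with TMM factors), and in the 12 Tet1CD libraries between 184 and 687, as the labels have it. Pou5f1 lay between 723 and 2319 CPM in the reprogramming libraries against a mean of 3.42 in MEF. Outside MEF, 2 libraries were singled out by their markers. The library ESC 0822 held 10407 CPM summed over 10 fibroblast markers, against 92.6 in ESC 0819 and 33145 to 34629 in MEF. The day 8 Tet1CD Vc library numbered 0824 held 1129 CPM of 8 macrophage markers, Csf1r and Ptprc among them, against 29.1 to 66.4 in the DMSO libraries of day 8. The 2 MEF libraries also differed in these markers, with 492 and 2348 CPM. The file names of the 2 ESC libraries carry the numbers the other way round from their labels, and the labels are followed here. In bulk RNA, fewer cells of a type and less RNA per cell cannot be told apart.

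**Figure D1:**
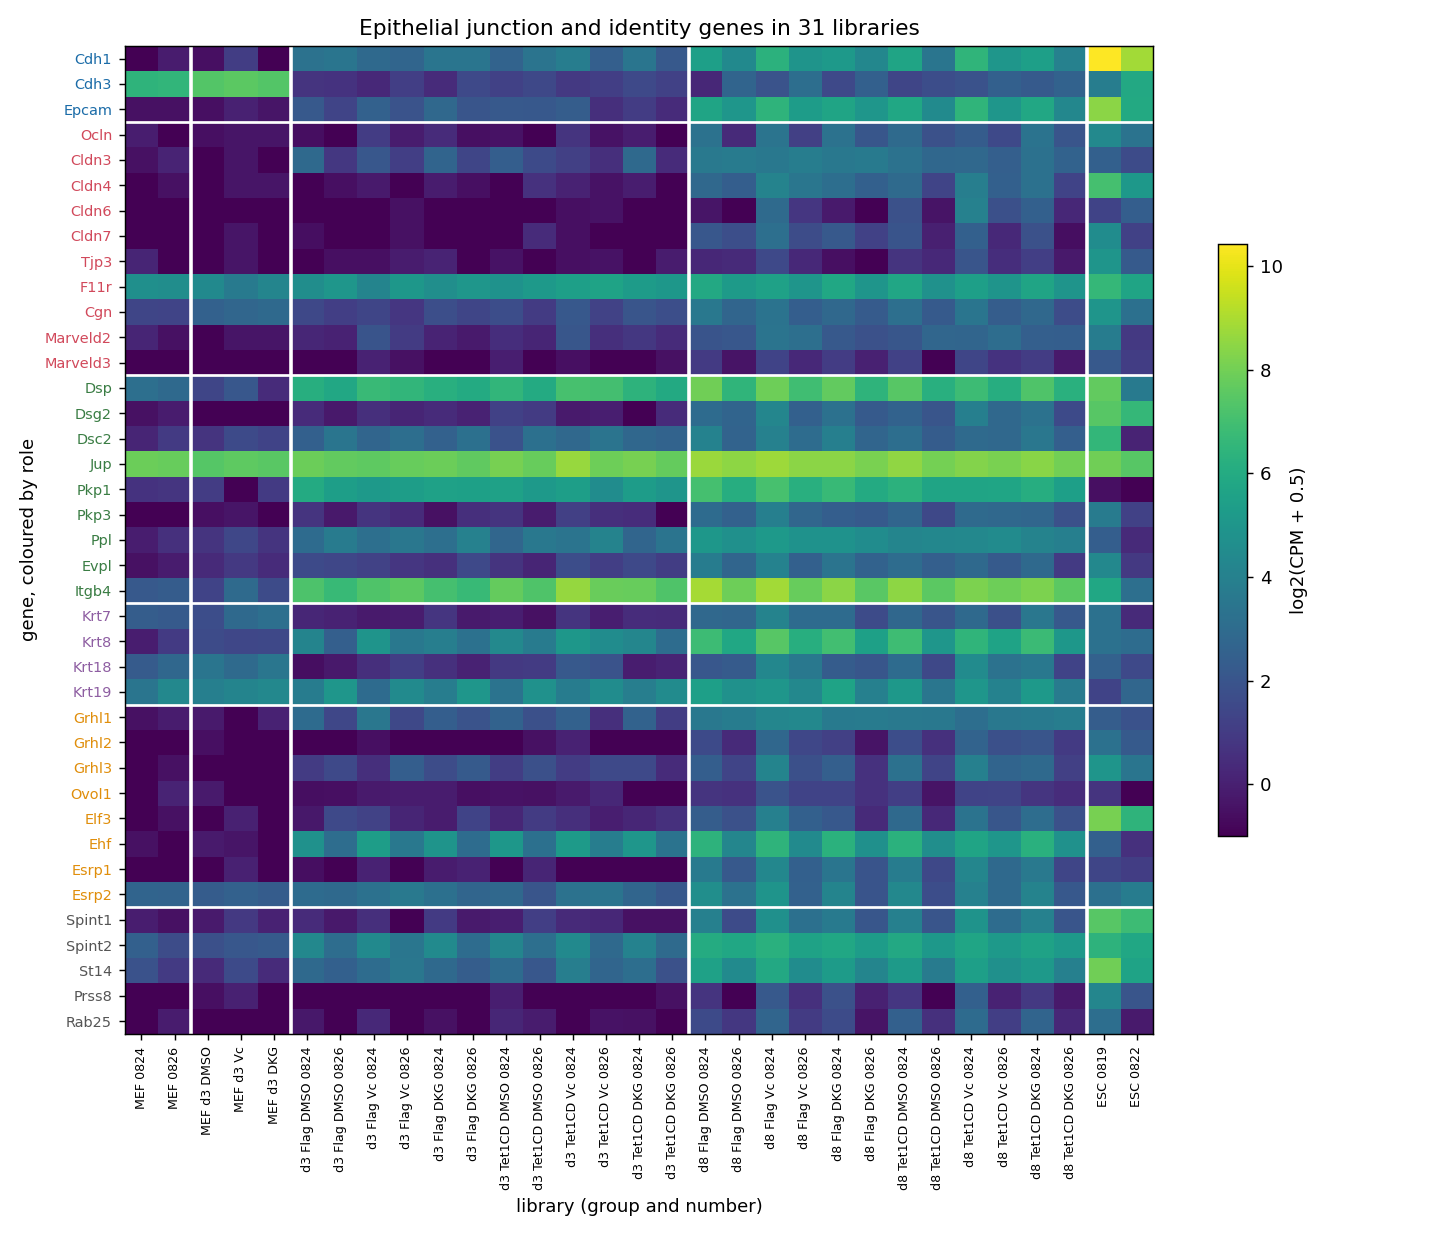
Level of the 39 genes (rows, coloured by role) in all 31 libraries (columns: MEF, MEF kept to day 3, day 3, day 8, ESC, separated by white lines), as log2(CPM + 0.5). Most rows brighten from left to right; Cdh3, Krt7 and Krt18 are dark at day 3, and Pkp1, Itgb4, Krt8 and Ehf are brighter at day 8 than in ESC.

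The members' promoters were read for the motif of the repressors named above. RefSeq windows (build GRCm38.p6) of 250 bases before the RefSeq start were at hand for 21 of the 39 genes. The windows of Cldn6, F11r, Cgn, Krt7, Krt8, Krt18, Grhl1, Elf3 and Rab25 overlap the annotated span of their own gene, in part or whole. The E-box CAGGTG, searched on both strands, occurred in 12 of these 21 windows (57.1%) against 17.2% of all 32851 promoters of the table. It was found at Epcam, Cldn4, Cldn6, Tjp3, F11r, Krt7, Krt8, Krt18, Grhl3, Elf3, Spint2 and Rab25. The Grainyhead motif AACNNGTT occurred in 2 (9.52% against 3.64%), at Cgn and Rab25, and the Klf motif CCACCC in 10 (47.6% against 28.1%). Of the E-box matches in these windows, 1 overlapped a match of another motif. The windows held a median of 10 CpG, from 2 to 27, against 6 in all promoters. A match is a string of letters and was not tested as a binding site. The windows of 4 genes are shown, all of which rose at day 8. E-boxes (or their reverse complement CACCTG) are in capitals for Epcam, Cldn4 and Spint2. CCACCC is in capitals for Cldn3, the neighbour of Cldn4. Cldn3 has no E-box in its window. Of the 12 genes with an E-box, all but F11r and Tjp3 were called higher at day 8 than at day 3. Of the genes whose windows had none, all but Dsp were called higher. Whether an E-box went with the rise was not tested.
Epcam, chr17:87635729-87635978, plus strand, E-boxes starting 187 and 19 bases before the start: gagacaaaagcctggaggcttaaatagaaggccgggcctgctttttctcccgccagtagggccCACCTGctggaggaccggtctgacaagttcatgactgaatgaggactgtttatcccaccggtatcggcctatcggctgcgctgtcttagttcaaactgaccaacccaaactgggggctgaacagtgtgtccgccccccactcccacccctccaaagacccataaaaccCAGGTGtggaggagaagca
Cldn4, chr5:134946935-134947184, minus strand, E-box starting 14 bases before the start: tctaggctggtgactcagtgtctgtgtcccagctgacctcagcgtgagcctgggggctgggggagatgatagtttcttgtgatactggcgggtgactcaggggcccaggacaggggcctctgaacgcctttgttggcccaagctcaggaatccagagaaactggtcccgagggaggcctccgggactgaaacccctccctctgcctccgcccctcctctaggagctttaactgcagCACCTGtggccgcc
Spint2, chr7:29281978-29282227, minus strand, E-boxes starting 74, 55 and 9 bases before the start: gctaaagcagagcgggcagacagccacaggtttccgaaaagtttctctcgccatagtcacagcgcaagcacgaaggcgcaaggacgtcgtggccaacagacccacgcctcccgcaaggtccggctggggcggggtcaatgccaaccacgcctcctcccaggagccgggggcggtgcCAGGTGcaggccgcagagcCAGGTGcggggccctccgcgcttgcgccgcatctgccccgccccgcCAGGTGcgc
Cldn3, chr5:134985964-134986213, plus strand, CCACCC 5 times: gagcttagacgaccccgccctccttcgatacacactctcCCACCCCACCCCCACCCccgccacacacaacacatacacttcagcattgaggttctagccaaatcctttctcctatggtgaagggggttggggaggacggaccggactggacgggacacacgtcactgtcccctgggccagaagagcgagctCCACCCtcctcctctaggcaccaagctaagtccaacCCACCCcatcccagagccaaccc

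Untreated fibroblasts had little of most of these transcripts, with a few exceptions. In 25 of the 39 genes the mean of the 2 MEF libraries was under 1 CPM. Per length, as TPM (transcript abundance corrected for length, deposited by the authors), Jup was the highest member in MEF at 140 ± 5.78 TPM (SD, n = 2). Jup encodes plakoglobin, which serves adherens junctions as well as desmosomes. Cdh3, P-cadherin, followed with 41.0 ± 1.94 TPM, then Krt19 with 24.8 ± 10.4 and F11r, the junctional adhesion molecule A, with 18.4 ± 0.990. Cdh1 was at 0 and 0.406 CPM in the 2 libraries.

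By day 3 in the Flag DMSO arm, 10 members were higher than in MEF and 3 were lower; of all genes tested, 14.8% were called higher and 13.9% lower (edgeR's quasi-likelihood test, adjusted p under 0.05). The members that rose were Cdh1 and Cldn3 among cell-cell adhesion genes, Dsp, Pkp1, Ppl and Itgb4 of desmosomes and hemidesmosomes, Krt8, the transcription factors Grhl1 and Ehf, and the protease inhibitor Spint2. Those that fell were Cdh3, Krt7 and Krt18.

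Pkp1, a desmosomal plakophilin of stratified epithelia, was at 1.07 and 1.22 CPM in MEF and at 63.0 and 42.6 CPM in day 3 Flag DMSO, a log2 fold change of 5.49 ± 0.54 (fold changes are given ± SE throughout; adjusted p = 3.2e-06). Itgb4, the integrin beta subunit of hemidesmosomes, went from 4.08 and 4.47 CPM to 150 and 102 CPM (4.88 ± 0.73, adjusted p = 0.00015). Ehf, an Ets factor of epithelia, was at 0.215 and 0 CPM in MEF and at 27.3 and 8.11 CPM at day 3 (adjusted p = 0.011). In each of these genes both day 3 libraries lay above both MEF libraries. For Pkp1 and Itgb4 the gap between the groups exceeded the difference within either group, while the 2 day 3 libraries of Ehf differed from each other by more CPM than the lower one did from MEF.

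Cdh1, with 2 counts in all in MEF, reached 9.53 and 10.5 CPM in that arm (adjusted p = 0.010), and every one of the 12 day 3 libraries lay between 4.09 and 13.99 CPM. Dsp, desmoplakin, rose from 8.59 and 7.11 to 72.0 and 58.3 CPM (3.05 ± 0.89, adjusted p = 0.016). Krt8, a simple keratin, rose from 0.430 and 1.42 to 17.6 and 4.98 CPM (3.57 ± 1.09, adjusted p = 0.021). Its usual partner Krt18 moved the other way, from 4.30 and 6.50 to 0.164 and 0.369 CPM, which is 3 counts in all (adjusted p = 0.0023). Krt8 and Krt18 lie 23.7 kb apart on chromosome 15. Krt8 also has an annotated processed pseudogene, Krt8-ps, with which reads could be shared.

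Cdh3 fell furthest, from 85.5 and 91.6 CPM in MEF to 1.15 and 1.11 CPM (-6.26 ± 0.85, adjusted p = 6.2e-05), and lay between 0.765 and 2.42 CPM in all 12 day 3 libraries. Fibroblasts kept to day 3 without the factors had 165 to 186 CPM of it. Cdh1 and Cdh3 lie 46.1 kb apart on chromosome 8 and moved in opposite directions. Fibroblast markers fell in the same comparison (6 of 10 called lower, none higher), and all 8 macrophage markers were called lower, with 492 and 2348 CPM in MEF. Their part in the members' values was not tested. The count of called members rested on single libraries: without MEF 0824 it was 5, without MEF 0826 it was 7 and without day 3 Flag DMSO 0824 it was 6, in place of 13.

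From day 3 to day 8 almost the whole list went up. Averaged over the 6 arms, 33 of the 39 genes were called higher at day 8 and none lower, where 14.4% of all genes tested were called higher and 10.7% lower. All 39 fold changes were above 0, with a median of 2.16 on the log2 scale against 0.01 over all genes. In 32 genes the mean was higher at day 8 in 6 of 6 arms and in the other 7 (Tjp3, F11r, Dsp, Dsc2, Jup, Itgb4 and Grhl3) in 5 of 6. The 6 genes not called were Tjp3, F11r, Dsp, Dsc2, Krt19 and Esrp2; with the library number as a term within each day, F11r (adjusted p = 0.024), Krt19 (0.011) and Esrp2 (0.021) were called higher too. In 8 genes the lowest of the 12 day 8 libraries lay above the highest of the 12 day 3 libraries, namely Epcam, Cldn4, Dsg2, Pkp3, Krt7, Esrp1, Spint1 and Spint2; 1.68% of all genes tested did so. Without the day 8 library that held macrophage markers 31 members were called higher. Cldn6 and Prss8 each lost their call in 2 of 24 fits that left out a library and Marveld3 in 1.

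**Figure D2:**
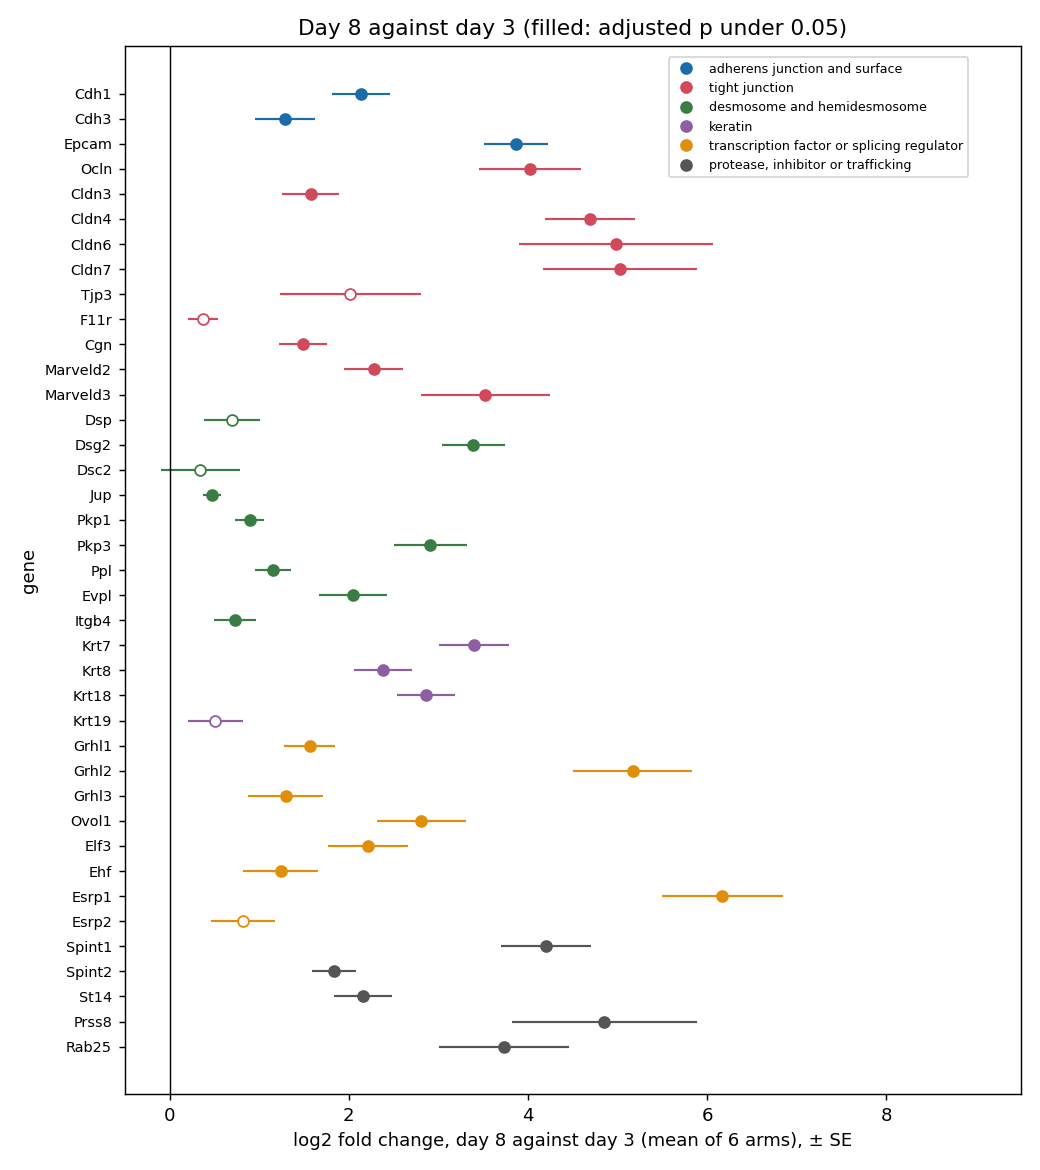
Log2 fold change of each gene from day 3 to day 8, averaged over 6 arms, with its standard error (horizontal bars), from edgeR on 28 libraries; filled points had an adjusted p under 0.05 and colours give the role. All 39 points lie to the right of 0, from 0.34 for Dsc2 to 6.17 for Esrp1.

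All 3 adherens junction and surface genes were higher at day 8. Epcam, a surface adhesion protein of epithelia and stem cells at chr17:87635979-87651129, had 0.817, 3.73 and 6.72 CPM as lowest, median and highest of the day 3 libraries and 19.0, 45.3 and 87.9 CPM at day 8. The 2 days did not overlap, and the fold change was 3.87 ± 0.36 on the log2 scale (adjusted p = 1.9e-06). Cdh1 (chr8:106603351-106670246) went from 4.09, 9.87 and 13.99 to 10.3, 33.7 and 89.5 CPM, with a small overlap of the days (2.14 ± 0.33, adjusted p = 0.00016). Cdh3 stayed low, at 0.724, 3.81 and 8.35 CPM at day 8, and was called higher than at day 3 (1.29 ± 0.34, adjusted p = 0.010).

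Of the 10 tight junction genes 8 were called higher, with a median log2 fold change of 2.90. Cldn4 was near 0 at day 3 (0, 0.216 and 1.04 CPM) and at 1.95, 6.98 and 16.9 CPM at day 8 (4.69 ± 0.50, adjusted p = 7.6e-06). Its neighbour Cldn3, 39.3 kb away on chromosome 5, was already at 0.817, 2.32 and 7.07 CPM at day 3 and rose less, to 5.02, 10.5 and 14.003 CPM (1.58 ± 0.32, adjusted p = 0.0016). Cldn3 had been called higher at day 3 and Cldn4 had not; that difference was not tested. Cldn7 went from 0, 0 and 0.833 to 0.178, 2.94 and 8.63 CPM (5.03 ± 0.86, adjusted p = 0.00069). Cldn6, a claudin of early embryos and stem cells, had 3 counts in all day 3 libraries (at most 0.238 CPM in one) and ranged from 0 to 15.8 CPM at day 8 with a median of 0.969 (adjusted p = 0.0050). Its day 8 libraries were uneven.

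Occludin (Ocln) and tricellulin (Marveld2), which seal contacts between pairs and triplets of cells and whose genes lie 43.2 kb apart on chromosome 13, both rose, by 4.02 ± 0.57 (adjusted p = 7.7e-05) and 2.28 ± 0.33 (adjusted p = 0.00010). Marveld3 and the cytoplasmic plaque protein cingulin (Cgn) were also called, at 3.53 ± 0.72 and 1.49 ± 0.27. F11r was well expressed throughout and changed little (0.37 ± 0.17, adjusted p = 0.12). Tjp3, the plaque protein ZO-3, stayed at or under 3.56 CPM (2.02 ± 0.79, adjusted p = 0.070).

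The desmosome and hemidesmosome genes moved unevenly, with 7 of 9 called higher and a median of 0.89. Dsg2, the desmosomal cadherin of simple epithelia, had 0, 0.722 and 1.84 CPM at day 3 and 2.49, 6.31 and 18.6 CPM at day 8 (3.39 ± 0.35, adjusted p = 4.6e-06). Pkp3 went from 0, 0.915 and 1.75 to 2.27, 6.28 and 14.7 CPM (2.91 ± 0.41, adjusted p = 8.7e-05). Neither gene overlapped between the days. Envoplakin (Evpl), a cornified envelope plakin, went from 0.624, 1.79 and 2.72 to 1.42, 6.56 and 16.5 CPM (2.05 ± 0.38, adjusted p = 0.00086).

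The genes of this group that were already high at day 3 changed by less: Ppl by 1.16 ± 0.20, Pkp1 by 0.89 ± 0.16, Itgb4 by 0.73 ± 0.23 and Jup by 0.47 ± 0.10 on the log2 scale, all 4 called; Itgb4 lost its call in 12 of 24 fits that left out a library (adjusted p up to 0.072). Dsp, at 58.3, 79.2 and 139 CPM at day 3 and 69.6, 118 and 251 CPM at day 8, was not (0.70 ± 0.31, adjusted p = 0.12). Dsc2, the other desmosomal cadherin listed, had medians of 6.70 and 7.58 CPM (0.34 ± 0.44, adjusted p = 0.62).

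Of the 4 keratins 3 were called higher. Krt7 went from 0.208, 0.514 and 1.22 CPM at day 3 to 2.60, 6.63 and 17.1 CPM at day 8 (3.40 ± 0.39, adjusted p = 1.2e-05), and Krt18 from 0.164, 0.987 and 4.08 to 1.95, 6.03 and 22.2 CPM (2.86 ± 0.32, adjusted p = 1.1e-05). Both genes had been lower at day 3 than in MEF, and their day 8 medians lay near the MEF libraries (4.72 and 4.27 CPM of Krt7, 4.30 and 6.50 CPM of Krt18). Krt8 went from 4.98, 15.9 and 32.5 to 32.0, 79.6 and 175 CPM (2.38 ± 0.32, adjusted p = 4.7e-05). Per length, Krt8 and Krt18 had median levels of 89.9 and 9.10 TPM at day 8 and means of 0.965 and 7.34 TPM in MEF. Krt18 was the higher of the 2 partners in MEF and Krt8 at day 8. Krt19 changed by 0.51 ± 0.31 (adjusted p = 0.25).

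Among 8 transcription and splicing regulators 7 were called higher. Esrp1, which directs epithelial splice forms, was at 0 to 0.624 CPM in the day 3 libraries and at 2.13, 8.79 and 19.2 CPM at day 8 (6.17 ± 0.68, adjusted p = 1.9e-05), the largest fold change of the 39. Esrp2, its relative, had medians of 7.20 and 12.6 CPM and did not pass (0.82 ± 0.36, adjusted p = 0.11). Grhl2, a Grainyhead factor that activates Cdh1 and claudin genes in epithelia, went from 0, 0 and 0.583 to 0.260, 2.34 and 6.47 CPM (5.17 ± 0.66, adjusted p = 9.5e-05). Ovol1, a repressor of mesenchymal genes, reached at most 3.34 CPM (2.81 ± 0.50, adjusted p = 0.00062). Elf3 rose by 2.22 ± 0.45 (adjusted p = 0.0016) and Grhl1 by 1.56 ± 0.29 (adjusted p = 0.00071). Grhl3 (1.30 ± 0.42, adjusted p = 0.031) and Ehf (1.24 ± 0.41, adjusted p = 0.036) lay nearer the threshold and each lost its call in 12 of 24 fits that left out a library, with adjusted p up to 0.11 and 0.089; Grhl3 also lost it with the replicate block (adjusted p = 0.051).

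All 5 surface protease, inhibitor and trafficking genes were called higher. The protease inhibitor Spint1 went from 0, 0.586 and 1.67 to 2.58, 10.7 and 28.6 CPM (4.20 ± 0.50, adjusted p = 1.5e-05) and its relative Spint2 from 6.90, 13.6 and 21.8 to 33.8, 49.9 and 74.9 CPM (1.83 ± 0.24, adjusted p = 4.3e-05). Their target matriptase (St14) rose with them, from a median of 6.997 to 30.6 CPM (2.16 ± 0.32, adjusted p = 0.00012). Prostasin (Prss8), the partner protease of matriptase, had 3 counts in all at day 3 (at most 0.459 CPM in a library) and between 0 and 5.16 CPM at day 8 (adjusted p = 0.0044). Rab25, an epithelial Rab GTPase of recycling endosomes, went from at most 0.765 CPM to 0.260, 2.07 and 7.47 CPM (3.73 ± 0.73, adjusted p = 0.0012).

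**Figure D3:**
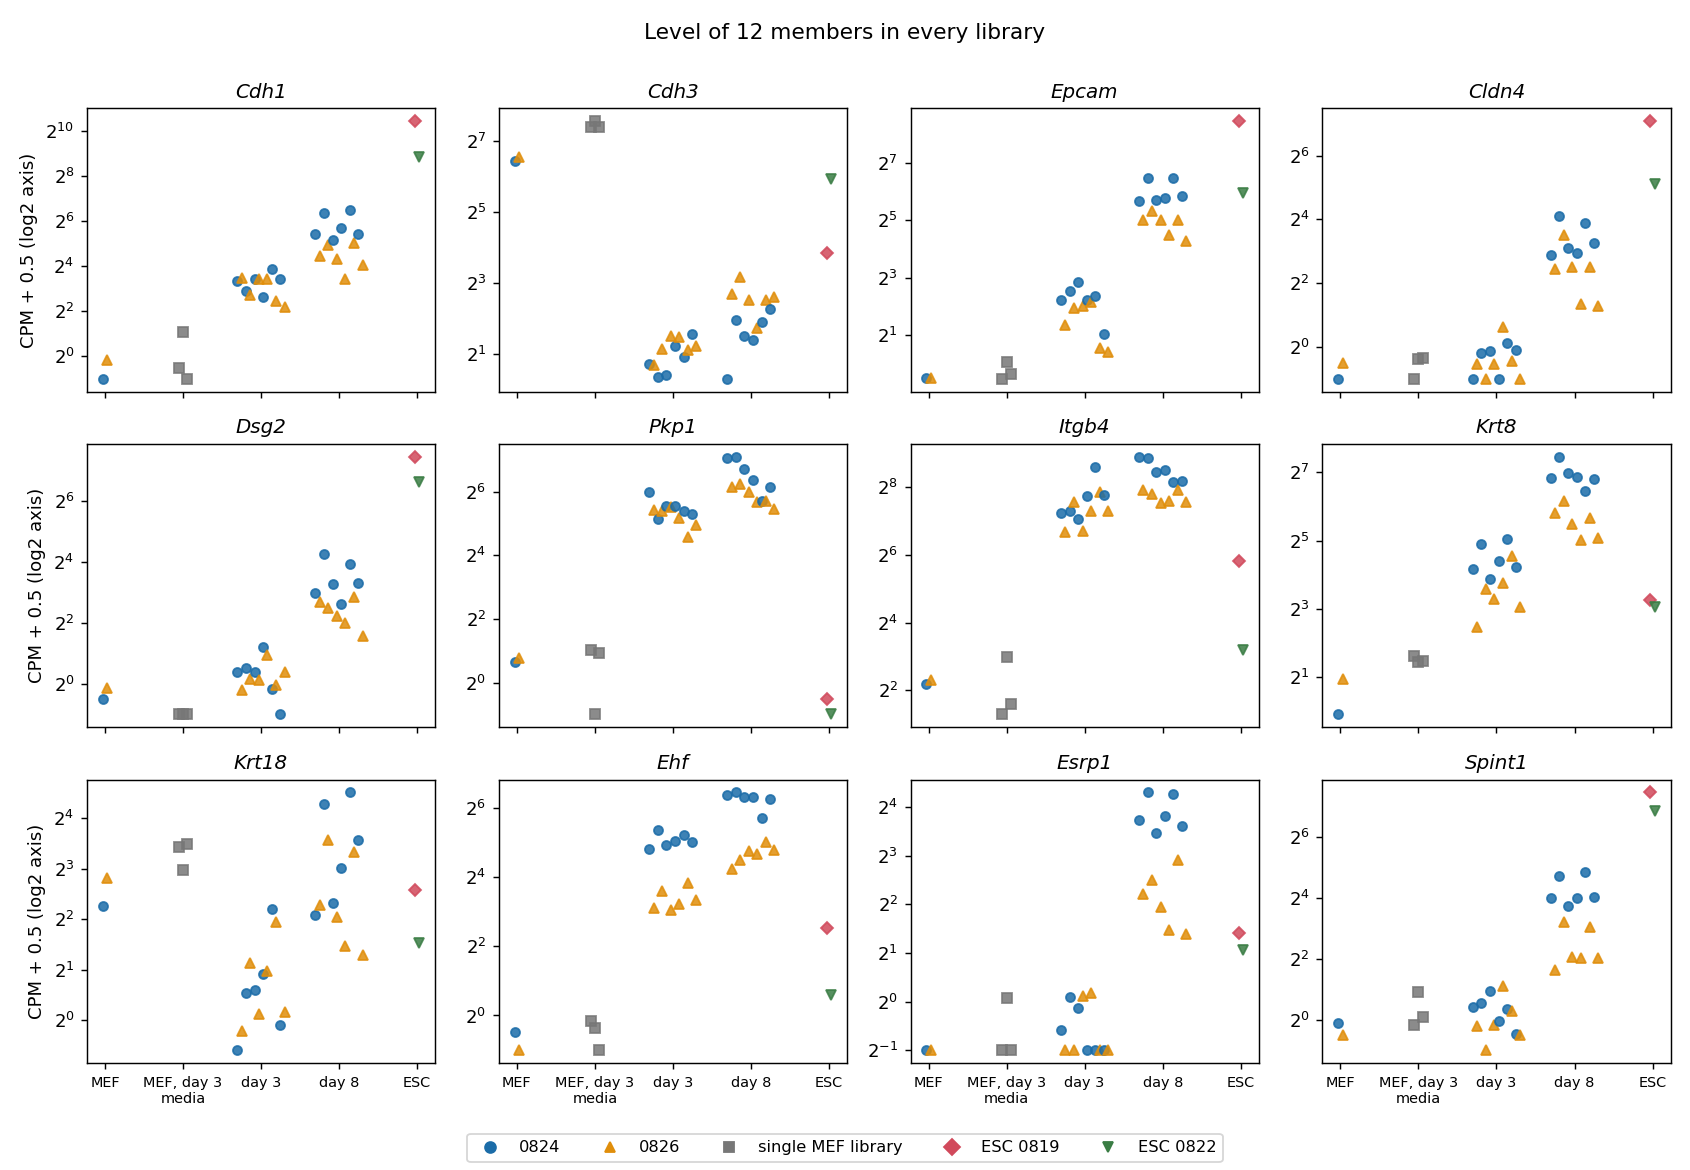
Level of 12 genes in every library (points; vertical axes CPM + 0.5 on a log2 scale, a scale of its own in each panel), with MEF, fibroblasts kept to day 3 without the factors, day 3, day 8 and ESC along the horizontal axis; colour and shape give the library number. Pkp1, Itgb4, Krt8 and Ehf lie above both ESC libraries at day 8, Cdh1, Dsg2 and Spint1 lie below both, Krt18 dips at day 3, and Cdh3 is far lower at day 3 and day 8 than in MEF.

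Single arms set 2 libraries against 2, and the DKG arms were not tested singly. In Flag DMSO 1 member was called higher (Epcam, 3.73 ± 0.86, adjusted p = 0.044; all genes 0.456%), in Flag Vc 5 (Epcam, Cldn4, Dsg2, Krt7 and Krt18; all genes 0.771%), in Tet1CD DMSO none (all genes 0.0402%; 18 members at an unadjusted p under 0.05, and DESeq2 called 1) and in Tet1CD Vc 1 (Dsg2, adjusted p = 0.0495; all genes 0.114%). Libraries of the same number deviated together within a day, so each of these 4 arms was also tested with the number as a term within each day. That fit called 20, 22, 10 and 15 members higher in the same order of arms, with 5.19%, 7.17%, 2.78% and 3.96% of all genes called higher. Epcam, Ocln, Krt8, Grhl1, Esrp1, Spint1 and Spint2 were called in each of the 4 arms. Without the library with macrophage markers the count in Tet1CD Vc fell from 15 to 8, and of these 7 genes Ocln was no longer called there (3.07 ± 0.82, adjusted p = 0.089). Without that library fewer of all genes were called higher in Tet1CD Vc too, with 1 library left at day 8. The fall in the count was therefore not particular to the members. Whether the rise differed between single arms was not tested.

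At day 8 members differed from ESC in both directions, as did all genes tested. The counts depended on which ESC libraries were used, as described below. Averaged over the 6 arms, 15 members were higher in ESC (27.6% of all genes tested) and 8 were lower (24.3%). Of the 10 genes that had risen by day 3, 6 were now above ESC, namely Pkp1, Ppl, Itgb4, Krt8, Grhl1 and Ehf, and 1, Cdh1, was below. Of the 26 genes not called at day 3, 13 were below ESC and 2, Jup and Krt19, above. The difference between these shares was not tested.

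Cdh1 was per length the highest member in ESC (577 and 204 TPM). It had 1385 and 462 CPM there, and its mean at day 8 was 4.25% of the ESC mean (log2 fold change, ESC over day 8, 4.62 ± 0.42, adjusted p = 9.75e-08). Elf3, an Ets factor, had 271 and 85.4 CPM in ESC and stood at 3.05% (5.15 ± 0.48, adjusted p = 1.3e-07). Dsg2 had 175 and 98.6 CPM in ESC and stood at 5.67% (4.20 ± 0.36, adjusted p = 4.8e-08), and Spint1 had 176 and 116 CPM and stood at 8.22% (3.66 ± 0.51, adjusted p = 1.4e-05). For these 4 genes both ESC libraries lay above all 12 day 8 libraries. Epcam stood at 22.9% of the ESC mean, and its level in ESC 0822, 61.4 CPM, lay within the day 8 range.

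On the other side, Pkp1 had 0.194 and 0 CPM in the ESC libraries, where it rested on a single count, against 43.7 to 136 CPM at day 8 (adjusted p = 9.8e-09). Ehf was on average 16.1 times as high at day 8 as in ESC, where it had 5.25 and 0.993 CPM (log2 fold change, ESC over day 8, -3.99 ± 1.10, adjusted p = 0.0055, and -3.27, adjusted p = 0.057, without ESC 0822). Krt8 was 10.0 times as high (-3.30 ± 0.75, adjusted p = 0.0013), Itgb4 9.03 times (-3.16 ± 0.57, adjusted p = 0.00016) and Ppl 8.38 times (-3.01 ± 0.49, adjusted p = 5.9e-05). The ESC libraries 0819 and 0822 had 55.6 and 8.54 CPM of Itgb4 and 4.86 and 0.795 CPM of Ppl, and with 1 of them left out the log2 fold change was -5.07 (without 0819) or -2.38 (without 0822) for Itgb4 and -4.82 or -2.26 for Ppl, each still called. Grhl1 was not called without either of them (adjusted p = 0.078 and 0.13). All of these day 8 libraries lay above both ESC libraries. The other 16 members were not called. With the number term Cldn6 (1.82 higher in ESC, log2 scale, adjusted p = 0.0035) and Spint2 (0.53, adjusted p = 0.0041) were called, as were Ocln, Marveld3 and Grhl2 (higher in ESC) and Cldn3 and Esrp1 (lower). The value for Cldn6 averages the arms on the log2 scale. In CPM both ESC libraries (1.94 and 4.77) lay within its day 8 range of 0 to 15.8. Its day 8 mean was 92.4% of the ESC mean.

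**Figure D4:**
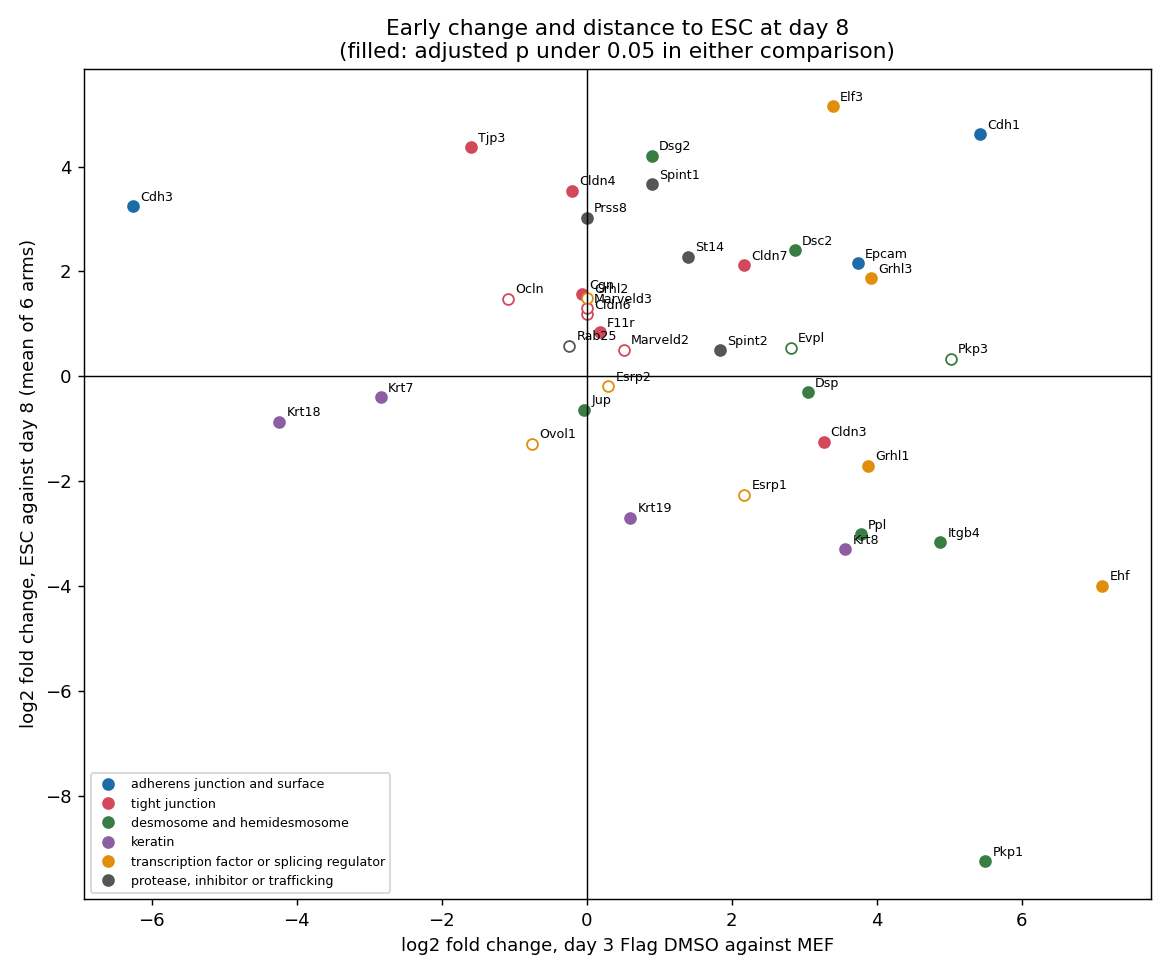
Each gene by its log2 fold change from MEF to day 3 Flag DMSO (horizontal) and from the mean of the 6 day 8 arms to ESC (vertical), with colours for the role; filled points had an adjusted p under 0.05 in at least 1 of the 2 comparisons, which share no library. Pkp1, Itgb4, Ppl, Krt8, Grhl1 and Ehf lie at the lower right, Cdh1 at the upper right and Cdh3 at the upper left; the fitted value of Pkp1 rests on 1 count in ESC.

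The 2 ESC libraries differed from each other in most members, with 35 of 39 higher in ESC 0819. Dsc2 had 94.1 CPM in 0819 and 0.596 in 0822, Dsp 206 and 12.5, and Tjp3 31.1 and 4.17, while Cdh3 had 13.8 and 59.6. Against MEF, 30 members were called higher in ESC (26.8% of all genes) and 1, Pkp1, lower (25.7%). Without ESC 0819 the total fell from 31 to 16 and without ESC 0822 it was 30. Against day 8, the split of 15 higher and 8 lower became 17 and 5 without ESC 0822, and 6 and 12 without ESC 0819, where Dsc2 and Cldn7 changed direction and Epcam (0.41 on the log2 scale, adjusted p = 0.64), Tjp3, F11r, Cgn, Grhl3, St14, Prss8 and Krt19 were no longer called. Without ESC 0822, Jup was no longer called (adjusted p = 0.15). Calls over all genes were not counted in the fits with 1 ESC library, so whether these falls were particular to the members cannot be told. Fibroblast markers differed between the 2 ESC libraries as given above, and their part in the members' differences was not tested.

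Vc, read against DMSO at day 8 over both viruses, changed no member by edgeR's test without a number term (all genes, either direction, 0.201%; 3 members at an unadjusted p under 0.05, and DESeq2 called none). The members' median was 0.59 on the log2 scale against 0.00 over all genes. In 19 of the 39 genes Vc lay above DMSO in 4 of 4 pairs matched by virus and number, against 12.5% of all genes tested, and no member lay below in all 4. At day 3 such members numbered 10 (all genes 8.05%) and none was called (all genes, either direction, 0.121%; 3 at an unadjusted p under 0.05).

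With the number as a term within the day, 2 members were called higher with Vc at day 8 (all genes 1.17%). Cldn6 had 0.290 and 0 CPM in Flag DMSO, 7.26 and 1.23 in Flag Vc, 3.09 and 0.252 in Tet1CD DMSO, and 15.8 and 2.98 in Tet1CD Vc, with number 0824 first. Vc was higher in each of the 4 pairs, and the fold change was 3.64 ± 0.52 (adjusted p = 0.0054). Krt18 had 3.76 and 4.38 CPM in Flag DMSO, 19.0 and 11.3 in Flag Vc, 7.58 and 2.27 in Tet1CD DMSO, and 22.2 and 9.49 in Tet1CD Vc. It rose by 1.78 ± 0.36 (adjusted p = 0.0205), while its partner Krt8 did not pass (0.29 ± 0.18, adjusted p = 0.59). Without the library with macrophage markers Cldn6 was still called (3.83 ± 0.66, adjusted p = 0.036) and Krt18 was not (1.71 ± 0.41, adjusted p = 0.10). The 10 pluripotent cell markers moved in the same comparison, with 2 called without and 9 with the number term, a median log2 fold change of 3.33, and summed levels of 15.5 to 110 CPM with DMSO and 52.1 to 358 CPM with Vc. The part of pluripotent cells in the members' values was not tested.

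**Figure D5:**
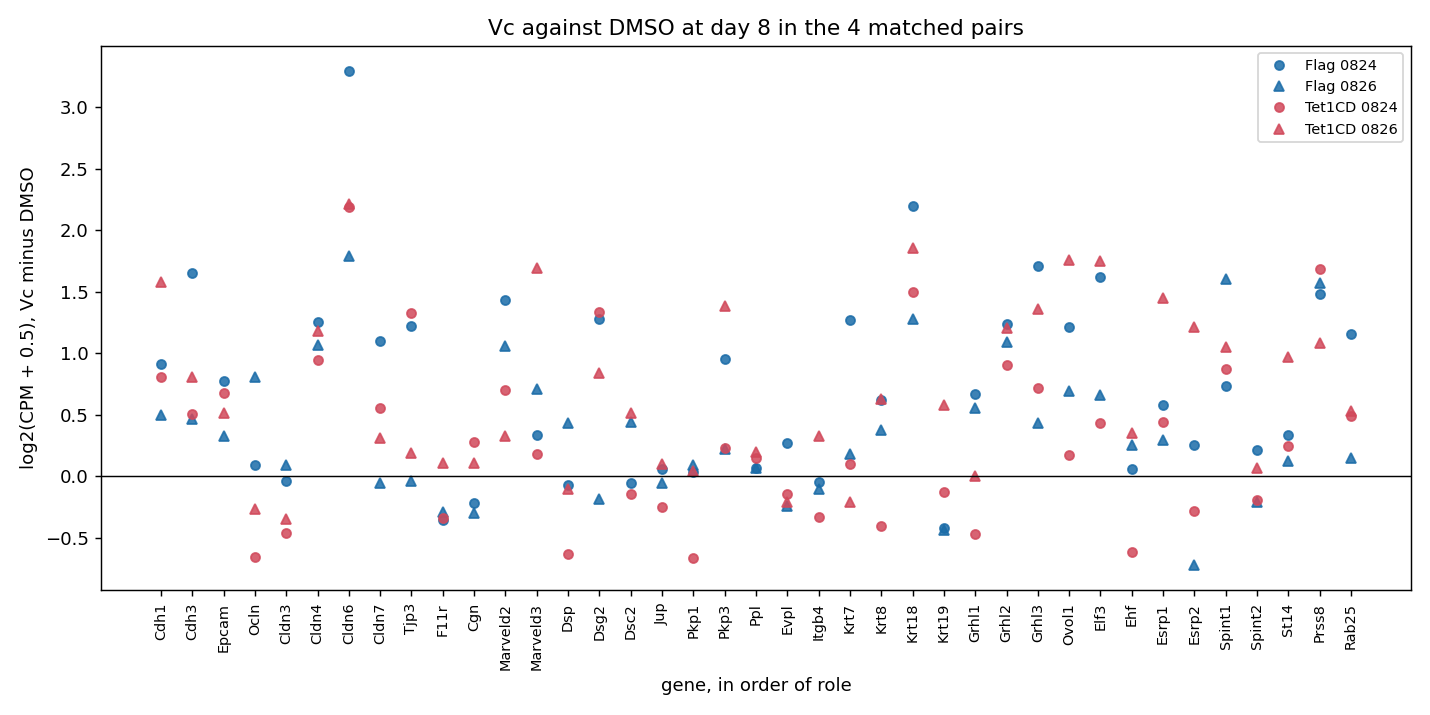
Difference between Vc and DMSO at day 8 in log2(CPM + 0.5) for each gene (horizontal axis, in order of role), in the 4 pairs of libraries matched by virus (colour) and number (shape). In 19 genes, such as Cldn6, Krt18, Cdh1, Grhl2 and Prss8, all 4 points lie above 0, and in none do all 4 lie below.

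Against DMSO, DKG changed no member at day 3 or day 8, nor any other gene tested (0.0% at either day by edgeR; no member at an unadjusted p under 0.05, and DESeq2 called none). Below DMSO in 4 of 4 matched pairs at day 8 lay 8 members (Cldn3, Cgn, Jup, Pkp1, Ppl, Evpl, Itgb4 and Esrp1), against 8.21% of all genes.

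Tet1CD, read against Flag over the 3 media, changed no member at day 3 (all genes, either direction, 0.697%; 1 member at an unadjusted p under 0.05) or at day 8 (1.76%; 3 members), and DESeq2 called none at either day. With the number term at day 8, Cldn6 was called higher (2.73 ± 0.45, adjusted p = 0.00405; all genes 4.96%) and Cldn3 (-0.82 ± 0.24, adjusted p = 0.043), Pkp1 (-0.69 ± 0.14, adjusted p = 0.0059) and Ppl (-0.64 ± 0.19, adjusted p = 0.048) lower (all genes 3.41%). Pkp1 had 133, 69.8, 136, 74.2, 104 and 62.9 CPM in the 6 Flag libraries and 81.5, 50.4, 51.1, 51.9, 70.0 and 43.7 CPM in the 6 Tet1CD libraries. Within each matched pair the Tet1CD library was the lower one. This held in 6 of 6 pairs for 11 members (all genes 10.3%), and the reverse for Cldn6 alone (all genes 9.03%). Without the library with macrophage markers, Cldn6 and Pkp1 were still called and Cldn3 and Ppl were not. With the number term and all 28 libraries, 4 of 11 keratinocyte markers tested were called lower and 6 of 10 pluripotent cell markers higher. Without the number term, no keratinocyte marker was called and 1 pluripotent cell marker was called higher. The medians in that fit were -0.33 for the keratinocyte markers and 2.07 for the pluripotent cell markers. The part of these cell types was not tested. No member had a Vc effect that differed between the viruses (all genes, either direction, 0.0201%; no member at an unadjusted p under 0.05, and DESeq2 called none).

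The members also differed with the number of a library. At day 8 the library numbered 0824 was above its partner 0826 in 6 of 6 arms for 30 of the 39 genes (all genes 22.7%), with a median difference of 1.11 on the log2 scale over the members and 0.05 over all genes. Cdh1 averaged 57.1 CPM in the 0824 libraries and 21.4 in 0826, Spint1 19.0 and 4.99, Esrp2 20.6 and 5.30, and Ehf 75.5 and 24.9. Cdh3 averaged 2.66 and 5.49 CPM. At day 3 this held for 10 members in favour of 0824 (all genes 15.2%) and for Ppl and Krt19 in favour of 0826 (all genes 16.4%). Summed fibroblast markers averaged 2654 CPM in the 0824 libraries of day 8 and 5352 in 0826, keratinocyte markers 387 and 177, and pluripotent cell markers 157 and 59.9. What the numbers stand for is not given, and the part of these cell types was not tested.

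Other genes of the same biology changed in part. Of 20 further polarity and junction genes, 10 were higher at day 8 than at day 3 and none lower, with a median of 0.34. Among them Crb3, an apical polarity protein, was at most at 0.219 CPM at day 3 and at 0.178, 1.42 and 5.10 CPM at day 8 (adjusted p = 0.00075). Dsg3, a desmoglein of stratified epithelia, rose by 2.91 ± 0.64 and Cldn1 by 1.91 ± 0.35. Of 14 repressors and mesenchymal genes, the repressor Snai2 (-1.34 ± 0.33, adjusted p = 0.0070) and N-cadherin (Cdh2, -1.43 ± 0.24, adjusted p = 0.00033) fell from day 3 to day 8 and Snai1 rose (0.95 ± 0.29, adjusted p = 0.022). Snai1 nevertheless stayed below MEF, where it had 72.7 and 84.2 CPM. Its highest library had 26.6 CPM at day 3 and 64.8 CPM at day 8. From MEF to day 3 Flag DMSO, 4 of these 14 genes were called lower and none higher. Median levels of the repressor Zeb1, named after its values were seen, were 62.0 CPM at day 3 and 51.8 at day 8, against 116 and 119 CPM in MEF. Among BMP and TGF-beta genes, the ligands Bmp7 (1.65 ± 0.58, adjusted p = 0.048) and Tgfb2 (0.31 ± 0.10, adjusted p = 0.035) rose.

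Markers of keratinocytes and of pluripotent cells rose with the members. Of 11 keratinocyte markers tested 10 were higher at day 8 than at day 3, led by Krt17 (4.82 ± 0.64), Sprr1a (4.13 ± 0.41) and Col17a1 (4.11 ± 0.50), and their sum ranged from 40.9 to 133 CPM at day 3 and from 126 to 577 CPM at day 8, against 40.5 and 106 CPM in ESC. Of 10 pluripotent cell markers 9 were higher, led by Utf1 (adjusted p = 0.0022), Lin28a (0.0046) and Tdgf1 (5.30 ± 0.77 on the log2 scale), with sums of 3.88 to 45.1 CPM at day 3, 15.5 to 358 CPM at day 8 and 2605 and 3590 CPM in ESC. Of 4 trophoblast markers tested Tfap2c rose (2.28 ± 0.41), and Tpbpa was at 0 in every day 8 library. Of 4 extraembryonic endoderm markers Gata6 fell (-0.54 ± 0.19), of 4 endothelial markers Cldn5 rose (4.72 ± 0.49), and of 8 macrophage markers Laptm5 rose (1.36 ± 0.26). Of 10 fibroblast markers Lum and Postn rose (1.65 ± 0.53 and 1.49 ± 0.47). How far each cell type carried the members' rise was not tested.

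In 15 of the 39 genes an annotated gene on the opposite strand overlaps the span, in part or whole. The overlap is 40 bases at Cldn3 and at Tjp3, 4994 at Elf3 (Gm26642) and 11021 at Esrp1 (Gm26663). The labels do not say that counting used strand, so reads of such pairs cannot be told apart. At Pkp1 an annotated gene on the same strand, Gm36938, overlaps 2696 bases, where strand would not separate the reads.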

How the data were processed

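RNA of 31 mouse libraries was prepared with a TruSeq RNA kit from 1 ug of total RNA, per the labels' protocols. The submitters' processing notes name Bowtie, RSEM and mm10 without versions; whether counting used strand is not given in the sources used here. The deposited tables hold, per gene and per the file headers, RSEM's expected counts and TPM. The expected counts, of which 17.2% were not whole, were rounded; TPM was used only to compare levels between genes. Library totals were 3953297 to 6818060 counts, which limits low genes.

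Counts of 28 libraries (14 groups of 2) were scaled by TMM, filtered with filterByExpr (14914 genes kept) and fitted together with edgeR 4.0.16 in R 4.3.3 (glmQLFit, glmQLFTest), with Benjamini-Hochberg adjustment over all genes and a threshold of 0.05. Paired differences used log2(CPM + 0.5). The test was tried on simulated data. Same-numbered libraries deviated together within a day (correlations of 0.356 to 0.504 at day 3 and 0.345 to 0.687 at day 8). Between day 3 and day 8 the correlations were lower (-0.0084 to 0.178). Between MEF and reprogramming libraries they ran from -0.010 to 0.305, the highest not far below the lowest within a day. The numbers were taken to pair libraries within a day only, from the data and not the labels. Alternatives were RLE size factors, no filter, the number as a block, DESeq2 1.42.0 and each library left out; fits without 1 library and the difference of the virus effect between days were chosen after seeing the data. All 39 members are reported by role, and of each other list up to 3 called genes with the largest change from day 3 to day 8; 1 result of the BMP and TGF-beta list is not reported here. The members and lists were chosen with earlier results of these data known. Gene positions are from GENCODE M21 (mm10), which matched 28756 of 29267 identifiers.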

Additional observations from a re-analysis of the deposited data

Results flagged for a closer look

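In 2 members, F11r and Jup, Tet1CD lay above Flag in 6 of 6 matched pairs at day 3 and below it in 6 of 6 at day 8; other members changed sign in their mean without doing so in every pair, among them Itgb4 (day 8 effect minus day 3 effect -0.99 on the log2 scale, edgeR adjusted p = 0.74). For F11r the day 8 effect minus the day 3 effect was -0.6257 on the log2 scale (SE 0.34, edgeR adjusted p = 0.87; with the number term within each day -0.65 ± 0.22, adjusted p = 0.15). For Jup it was -0.5782 (SE 0.20, adjusted p = 0.43; with the number term -0.57 ± 0.14, adjusted p = 0.049). With the number term, 262 of all 14914 genes were called higher in this difference and 128 lower, and of the members Jup alone. Over all genes, Tet1CD lay above Flag in 6 of 6 pairs at day 3 in 10.5%. It lay below Flag in 6 of 6 pairs at day 8 in 10.3%. The share of all genes that did both was not counted. The test of the difference between days was added after seeing the data. Krt19 differed between the numbers 0824 and 0826 in opposite directions: at day 3 its mean was 12.03 CPM in 0824 and 26.3 in 0826, and at day 8 it was 37.4 and 16.9, a difference of 2.2708 between the days on the log2 scale that was not tested.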

How the results depend on the processing

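With 2 libraries a group, the comparisons within single arms depended most on the settings. All genes called moved with the settings too. In Flag DMSO 68 of 14914 genes were called higher from day 3 to day 8. They numbered 140 of 23613 without the filter and 199 of 14915 with DESeq2. With the replicate block they numbered 250 of 14914, and with the block within each day 774. Members called from day 3 to day 8 in Flag DMSO (1) numbered 10 without the filter, 13 with DESeq2, 15 with the replicate block and 20 with the block within each day. In Flag Vc (5) they numbered 13, 14, 18 and 22 in that order, in Tet1CD DMSO (0) 1, 1, 4 and 10, and in Tet1CD Vc (1) 6, 6, 9 and 15, with 0 under RLE size factors and 8 under the within-day block without the day 8 Tet1CD Vc library 0824. For Vc at day 8 (0) the replicate block called 1, the within-day block 2, and the latter without that library 1. For Tet1CD at day 8 (0) these were 2, 4 and 2, and for the difference of the Tet1CD effect between days (0) the within-day block called 1. Of the genes tested, main fit first and then in the order above, 115, 196, 309, 419 and 1069 were called higher in Flag Vc. Those in Tet1CD DMSO were 6, 25, 52, 105 and 415, and those in Tet1CD Vc 17, 187, 178, 224 and 590. For Vc at day 8, 27 genes were called higher and 3 lower. With the replicate block these were 59 and 12, and with the within-day block 175 and 44. For Tet1CD at day 8 they were 228 and 35, 382 and 93, and 739 and 509. The cause was not tested. Counts stayed within 1.5 times for ESC against MEF, day 3 against MEF, the mean of day 8 against day 3 and ESC against day 8 under these settings.

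Leaving out 1 library at a time gave 16 to 30 called members for ESC against MEF, 5 to 12 for day 3 against MEF, 28 to 33 for the mean of day 8 against day 3, 18 to 25 for ESC against day 8, 0 in Flag DMSO, 0 to 2 in Flag Vc, 0 to 5 in Tet1CD Vc and 0 in the other comparisons; a lone library was assumed to vary like the other groups. Without ESC 0819, Dsc2 turned to -0.78 against MEF (adjusted p = 0.63) and -3.86 against day 8 (adjusted p = 0.0063), and Cldn7 to -0.68 against day 8 (adjusted p = 0.73). Without ESC 0822 these 3 values were 6.45, 3.37 and 2.99. Calls over all genes were not counted in the fits of this paragraph, so whether the counts moved more in the members cannot be told.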
